A study of Mus musculus with 12 samples.

Results

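Heat shock proteins and other chaperones were followed in RNA-seq of mouse neural stem cells (NSCs) that proliferated or were held in 1 of 2 quiescent states. The group holds every gene of the count table whose symbol begins with Hspa, Hspb, Hspd, Hspe, Hsph, Hsp90 or a numbered Dnaja, Dnajb or Dnajc, together with Cct2 to Cct8, Tcp1 and Hsf1, leaving out pseudogenes. This rule found 80 of 17365 genes, of which 72 had enough counts to be tested and 8 did not. By family these were 11 Hsp70 genes, 3 Hsp110, 3 Hsp90, 2 of the Hsp60/Hsp10 pair, 10 CCT, 6 small heat shock proteins, 42 J-domain genes (4 Dnaja, 12 Dnajb and 26 Dnajc), Hsf1, and 2 genes that only share the prefix, Hspbp1 and Hspbap1. Hspbp1 encodes a protein that binds Hsp70 and Hspbap1 a partner of a small heat shock protein.

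Chaperones hold unfolded proteins and let them reach their shape. Hsp70 proteins bind exposed stretches of a protein and release them in cycles of ATP use, J-domain proteins bring them their substrates and start the ATP step, and Hsp110 proteins recharge them. Hsp90 acts late on kinases and receptors, the ring-shaped CCT complex folds actin and tubulin, Hsp60 with its lid Hsp10 does the same work inside mitochondria, and small heat shock proteins hold unfolding proteins without using ATP. Hsf1 is the transcription factor that turns on many of these genes under stress. In the adult subventricular zone, stem cells move between quiescence and division, and protein quality control is known to differ between these states.

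Cultures came from the subventricular zone of mice 6 to 8 weeks old, as the ANS4 line of strain MF1 and the BL6 line of strain C57BL/6. Proliferating cells were kept in EGF and FGF2 (EGF/FGF), at 10 ng/ml each. Dormant-like quiescent cells (d-qNSCs) received 10 ng/ml BMP4 for 3 days (BMP), and primed quiescent cells (p-qNSCs) received BMP4 with FGF2, each at 10 ng/ml, for 3 days (BMP/FGF). No agent other than these factors and no targeted allele was used in the 12 libraries, which give 2 replicates of each line in each condition. All cells were grown on laminin in medium with N2 and B27. Each line is 1 culture line, and the labels do not say whether its 2 replicates were separate cultures, so p-values measure the spread between these libraries, which may be technical. The samples are bulk RNA, in which fewer cells with a transcript and less transcript per cell cannot be told apart.

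Library totals ran from 18069052 to 19451818 estimated counts. Levels are given as CPM, counts relative to the library total after TMM scaling, where 3 counts in a library equal 0.155 to 0.168 CPM. Differences were tested with edgeR's quasi-likelihood test on all 12 libraries with condition and line as terms, two-sided, with Benjamini-Hochberg adjustment over 13312 genes, and a gene was called at an adjusted p (FDR) under 0.05. Log2 fold changes are given ± their standard error. The pair of BMP libraries of the BL6 line differed most from each other, with a chi-square of 12.4 per degree of freedom over genes against 2.14 to 4.76 in the other 5 pairs. Neural stem cell markers were present in every library, with a summed level of 7664 to 11989 CPM over 9 genes. Of the 9, 6 rose and 3 fell (66.7% and 33.3%) in each comparison with EGF/FGF. Beside them stood 40.8% and 38.8% of all genes under BMP, and 40.9% and 38% under BMP/FGF. The 3 that fell were Nes, Fabp7 and Egfr. Nes read 498 to 625 CPM in EGF/FGF, 116 to 141 CPM in BMP and 112 to 119 CPM in BMP/FGF. The 12 proliferation genes fell in both quiescent conditions, with median log2 fold changes of -2.44 under BMP and -3.26 under BMP/FGF.

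Chaperone messages took a smaller share of the transcriptome in quiescence. Before scaling, all 80 genes together held 1.62% to 1.73% of each proliferating library. Their share was 1.05% to 1.16% under BMP and 1.15% to 1.18% under BMP/FGF, so the quiescent states overlapped. After TMM scaling none of the conditions overlapped. The sums were then 16272 to 17209 CPM in EGF/FGF, 10230.2 to 11660 CPM in BMP and 11804 to 12015 CPM in BMP/FGF. Most of this sum lay in Hsp90, Hsp70 and CCT genes, whose summed levels were lower in both quiescent conditions, while the summed small heat shock proteins went from 41.9 to 48.3 CPM in EGF/FGF up to 302 to 350 CPM in BMP and 124 to 133 CPM in BMP/FGF. The plot of summed levels by class shows each library.

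**Figure D1:**
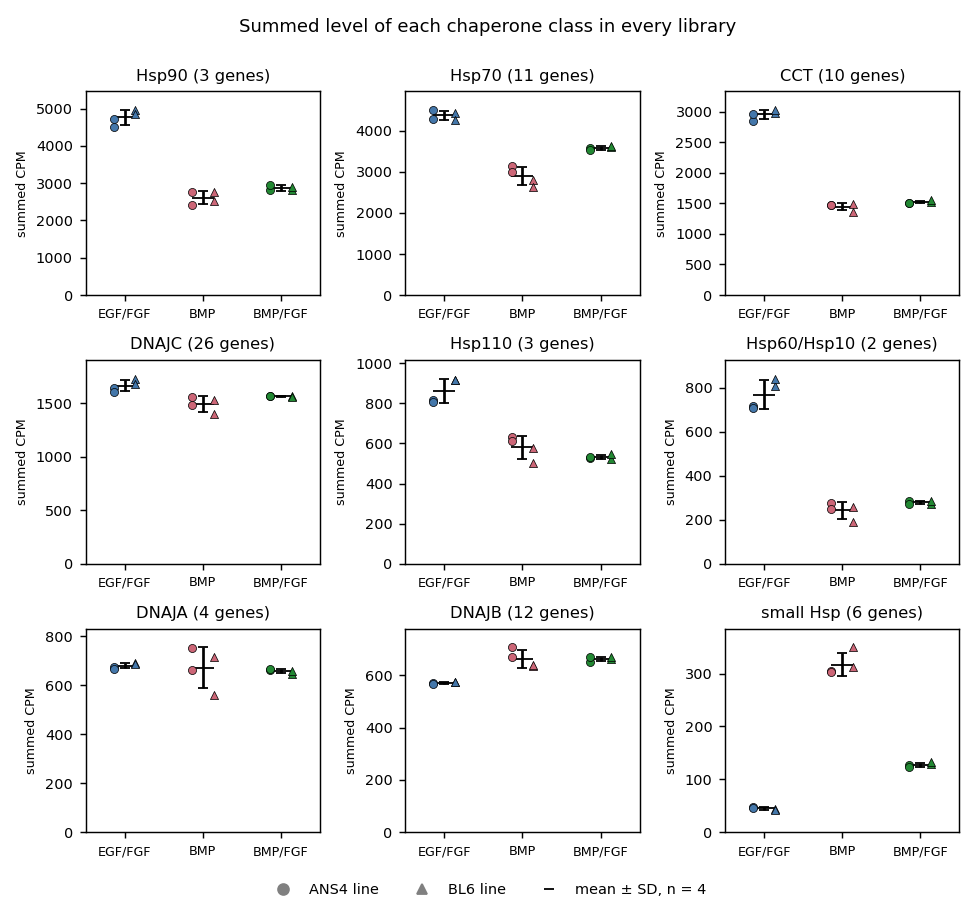
Summed CPM (vertical axes, from 0) of the genes of 9 chaperone classes in EGF/FGF, BMP and BMP/FGF, with circles for ANS4 libraries, triangles for BL6 libraries and black bars for the mean ± SD of 4 libraries. Hsp90, Hsp70, CCT, Hsp110 and Hsp60/Hsp10 sums are highest in EGF/FGF, whereas the small Hsp sum is highest in BMP.

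Counted gene by gene, the group moved in both directions. Under BMP, 23 of 72 tested members rose and 36 fell against EGF/FGF, that is 31.9% and 50% of members, beside 40.8% and 38.8% of all tested genes. With a log2 fold change beyond 1.5 as a further condition, 7 rose and 4 fell, beside 10.9% and 6.95% of all genes. Under BMP/FGF, 26 rose and 33 fell, beside 40.9% and 38% of all genes, and 9 rose and 2 fell beyond 1.5, beside 10.6% and 6.08%. The median log2 fold change of the members was -0.15 under BMP and -0.12 under BMP/FGF, where the median over all tested genes was 0.02 in both. Both comparisons use the same 4 EGF/FGF libraries, so they are given side by side and are not independent. Without replicate 1 of BL6 BMP the BMP counts were 24 higher and 36 lower, and without replicate 2 they were 25 and 35.

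**Figure D2:**
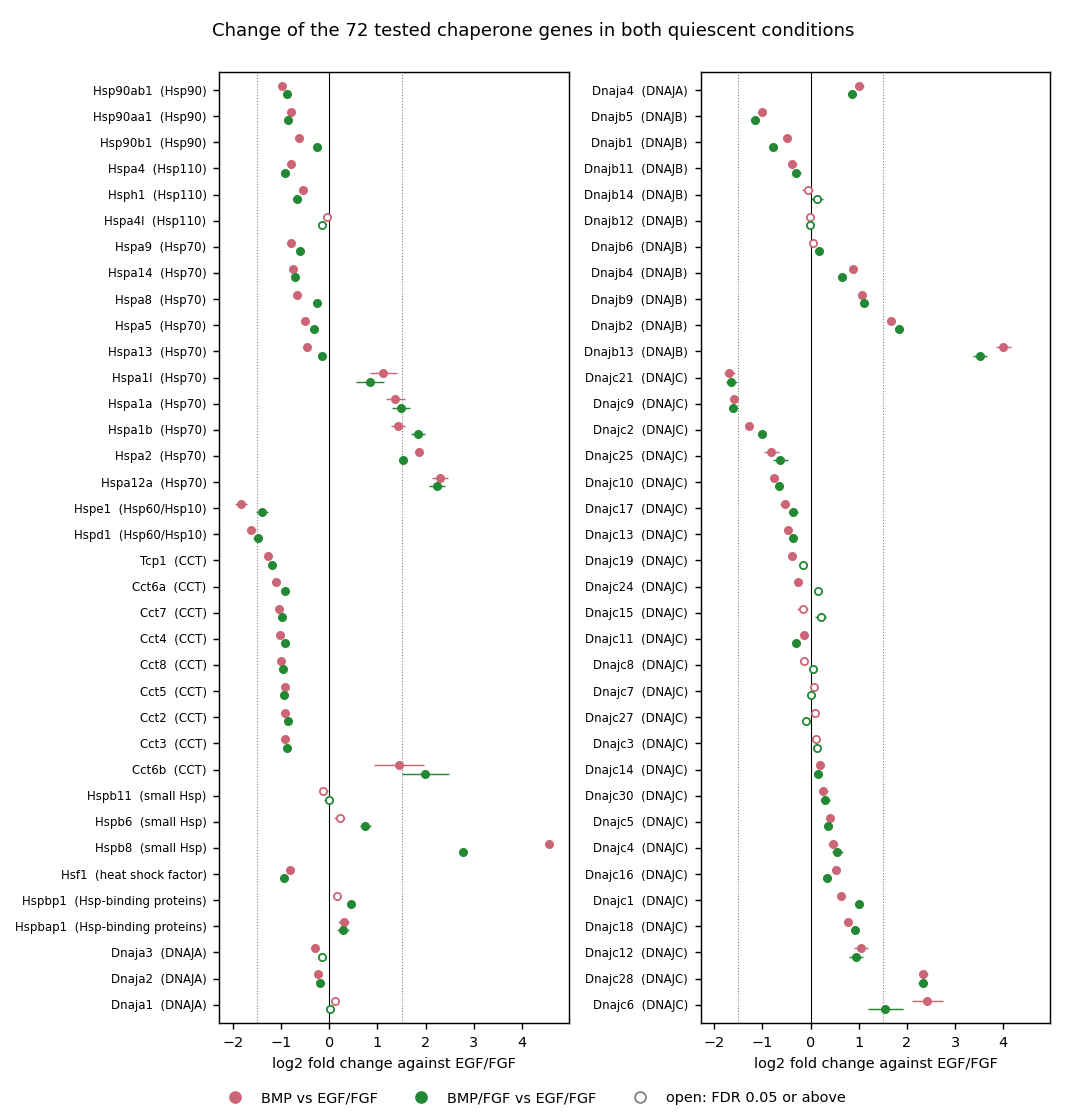
Log2 fold change against EGF/FGF (horizontal axis) of the 72 tested members, in rows by class, for BMP (red) and BMP/FGF (green), with bars for 1 standard error, filled points for FDR under 0.05 and dotted lines at 1.5 and -1.5. Hspb8 and Dnajb13 lie farthest to the right, and the 8 general CCT subunits lie together between -1.27 and -0.85.

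The 8 subunits of the CCT ring that all cells use, Tcp1, Cct2 to Cct5, Cct6a, Cct7 and Cct8, fell together and by like amounts. Their log2 fold changes spanned -1.27 (Tcp1) to -0.91 (Cct3) under BMP and -1.19 (Tcp1) to -0.85 (Cct2) under BMP/FGF. Tcp1, on chr17:12915701-12925067 (plus strand, GRCm38), gives the ring its name and fell the most of the 8. Its libraries read 462, 496, 478 and 516 CPM in EGF/FGF, 213, 210.4, 205 and 181 CPM in BMP, and 204, 210.05, 221 and 222 CPM in BMP/FGF. Here and for every gene the 2 ANS4 libraries come before the 2 BL6 ones. All quiescent libraries lay below all proliferating ones (BMP -1.27 ± 0.07, adjusted p = 4.42e-12, BMP/FGF -1.19 ± 0.06, adjusted p = 1.15e-11, edgeR).

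Summed over the CCT genes, levels were 2852 to 3026 CPM in EGF/FGF, 1356 to 1496 CPM in BMP and 1499 to 1554 CPM in BMP/FGF. Per kilobase of the longest transcript, the highest subunit (Cct2) exceeded the lowest (Cct4) by 2.38-fold in EGF/FGF, 2.56-fold in BMP and 2.5-fold in BMP/FGF, so the order at both ends was the same while the level fell. With the mean transcript length these ratios were 4.45, 4.77 and 4.66. Reads can be shared with other genes for some of them: 11.5% of the stretches of 31 bases of Cct6a also occur in transcripts of its neighbour Psph, and 10.6% of those of Tcp1 in Acat3. The testis form Cct6b, at 1 to 14 counts in each library, went the other way (0.143 CPM in EGF/FGF, 0.409 in BMP and 0.588 in BMP/FGF), called at 1.44 ± 0.52 (adjusted p = 0.0176, edgeR) and 1.99 ± 0.49 (adjusted p = 0.00113). Under BMP its call was lost without ANS4 BMP replicate 1, without ANS4 BMP replicate 2 or without ANS4 EGF/FGF replicate 2. Cct8l1 had at most 1 count and was not tested.

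Proteins that work beside the CCT ring were lower too. Of 9 genes for prefoldin, which hands unfolded actin and tubulin to CCT, and for other CCT partners, 7 fell under BMP and 0 rose, beside 38.8% and 40.8% of all genes, with a median log2 fold change of -0.63. Under BMP/FGF 7 fell and 1 rose, beside 38% and 40.9%, with a median of -0.37. The largest fall was in the prefoldin subunit Pfdn4, from 26.7 to 13.0 CPM under BMP (-1.04 ± 0.09, adjusted p = 9.10e-09, edgeR) and to 13.2 CPM under BMP/FGF (-1.02 ± 0.09, adjusted p = 1.36e-08). Pfdn5, another subunit, was the 1 gene that rose under BMP/FGF, from 74.0 to 96.4 CPM (0.38 ± 0.08, adjusted p = 3.89e-04). The genes of the proliferation list had summed levels of 3202 to 3739 CPM in EGF/FGF, 551 to 765 CPM in BMP and 378 to 394 CPM in BMP/FGF, with all 12 lower in both comparisons, and their part in the fall of the CCT genes was not tested.

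The mitochondrial chaperonin fell further. Hspd1 (Hsp60) forms the chamber and Hspe1 (Hsp10) its lid, and the 2 genes lie head to head on chromosome 1, at chr1:55077835-55088243 (minus strand) and chr1:55088132-55091307 (plus strand). Hspd1 read 563, 556, 631 and 652 CPM in EGF/FGF, 218, 199, 208 and 155 CPM in BMP, and 209, 208, 218 and 222 CPM in BMP/FGF. Hspe1 read 153.4, 152.6, 175 and 189 CPM in EGF/FGF, 56.3, 51.9, 49.1 and 33.1 CPM in BMP, and 74.0, 63.8, 52.7 and 64.8 CPM in BMP/FGF. For both genes, no quiescent library reached the lowest proliferating one. The fall was 3.08-fold for Hspd1 (-1.62 ± 0.09, adjusted p = 1.26e-11, edgeR) and 3.55-fold for Hspe1 (-1.83 ± 0.13, adjusted p = 3.36e-10) under BMP. Under BMP/FGF it was 2.80-fold for Hspd1 (-1.48 ± 0.09, adjusted p = 4.32e-11) and 2.64-fold for Hspe1 (-1.40 ± 0.13, adjusted p = 1.09e-08). Per kilobase of the longest transcript, Hspd1 ranked 5 among the members in EGF/FGF, 14 in BMP and 12 in BMP/FGF, and with the mean transcript length it ranked 6, 11 and 9. For Hspd1, 46.5% of the stretches occur in 1 processed pseudogene and 50.1% in any other gene. For Hspe1, 23.1% occur in 1 other annotated gene, so part of the counts of both could be split.

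The stretch near which both genes start is shown because it lies within 250 bases before a RefSeq start of each gene. It also holds a heat shock element, the site known to bind Hsf1. In the lines that follow, taken from RefSeq on GRCm38.p6, capitals mark 3 alternating units of 5 bases on the strand of each gene, at chr1:55088050-55088079 (minus strand) and chr1:55088051-55088080 (plus strand).
Hspd1: gccttccgGAAGGTTCTAGAAcggaccgtg
Hspe1: acggtccgTTCTAGAACCTTCcggaaggcc
The capitals begin 139 bases before a RefSeq start of Hspd1 and 89 before that of Hspe1. Hspd1 has another RefSeq start, whose window, chr1:55088194-55088493, does not hold the stretch. Relative to that start the stretch lies inside the gene. They are a match of letters and no evidence of binding.

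All 3 Hsp90 genes fell. The constitutive cytosolic Hsp90ab1 read 2776, 2618, 2817 and 2707 CPM in EGF/FGF, 1417, 1251, 1401 and 1433 CPM in BMP, and 1475, 1526, 1455 and 1464 CPM in BMP/FGF. Every proliferating library was above every quiescent one, and the fall was 1.99-fold under BMP (-0.99 ± 0.06, adjusted p = 7.32e-11, edgeR) and 1.84-fold under BMP/FGF (-0.88 ± 0.06, adjusted p = 3.76e-10). The stress-inducible Hsp90aa1 fell 1.73-fold under BMP and 1.83-fold under BMP/FGF, from 1068 ± 81.7 CPM (SD, n = 4), and 46.7% of its 31-base stretches also occur in 1 transcribed pseudogene. Hsp90b1, the Hsp90 of the endoplasmic reticulum, fell 1.55-fold under BMP and 1.19-fold under BMP/FGF.

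Of 23 co-chaperones, the helpers of Hsp70 and Hsp90, 15 fell and 3 rose in each comparison with EGF/FGF, 65.2% and 13%, beside 38.8% and 40.8% of all genes under BMP and 38% and 40.9% under BMP/FGF. They had medians of -0.54 under BMP and -0.45 under BMP/FGF. Fkbp5, an Hsp90 partner at steroid receptors, fell from 100.0 to 30.4 CPM under BMP (-1.72 ± 0.07, adjusted p = 2.31e-13, edgeR) and to 47.9 CPM under BMP/FGF. Stip1, which links Hsp70 to Hsp90, fell from 505 to 208 CPM under BMP and to 223 CPM under BMP/FGF (-1.18 ± 0.08, adjusted p = 1.32e-10). The largest rises were in Cdc37l1, related to the kinase-loading factor of Hsp90, from 82.0 to 119 CPM under BMP, and in Unc45a, a helper of myosin folding, from 16.8 to 24.1 CPM under BMP/FGF.

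Hsf1 itself, on chr15:76477422-76501913, fell from 37.2 ± 2.03 CPM to 21.2 ± 0.944 CPM in BMP and 19.4 ± 1.94 CPM in BMP/FGF (SD, n = 4). The values were 35.0, 37.6, 39.8 and 36.5 CPM in EGF/FGF, 22.2, 20.3, 20.4 and 21.7 CPM in BMP, and 22.3, 18.54, 18.2 and 18.55 CPM in BMP/FGF, so neither quiescent group overlapped the proliferating one, and ANS4 BMP/FGF replicate 1 stood above the other 3 libraries of its condition (BMP -0.81 ± 0.08, adjusted p = 2.97e-08, BMP/FGF -0.94 ± 0.08, adjusted p = 5.06e-09, edgeR). Of 10 genes listed as its stress-inducible targets, 9 were tested, of which 6 fell and 2 rose in both comparisons, 66.7% and 22.2%, beside 38.8% and 40.8% of all genes under BMP and 38% and 40.9% under BMP/FGF. The 2 that rose were Hspa1a and Hspa1b, and Hspb1 had at most 3 counts in any library. Among the other factors, Hsf4 rose from 0.375 to 2.20 CPM under BMP (2.53 ± 0.25, adjusted p = 4.06e-08) and to 1.25 CPM under BMP/FGF.

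Hsp110 genes, which reset Hsp70, fell, or passed no test in the case of Hspa4l. Hspa4 fell from 538 to 312 CPM under BMP (-0.79 ± 0.07, adjusted p = 1.93e-08, edgeR) and to 284 CPM under BMP/FGF (-0.92 ± 0.07, adjusted p = 2.38e-09). Hsph1 fell 1.45-fold under BMP and 1.58-fold under BMP/FGF. Hspa4l lay at 157, 152 and 141 CPM in EGF/FGF, BMP and BMP/FGF and passed neither test. Its response to BMP differed between the lines, by -0.42 ± 0.12 in BL6 minus ANS4 (adjusted p = 0.0382, edgeR interaction). ANS4 read 148 and 150 CPM in EGF/FGF and 172 and 161 CPM in BMP. BL6 read 172 and 158 CPM in EGF/FGF and 153 and 122 CPM in BMP.

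Of 10 tested genes of the Hsp70 family, 5 rose and 5 fell in both comparisons, beside 40.8% and 38.8% of all genes under BMP and 40.9% and 38% under BMP/FGF. The 5 that fell are the housekeeping members: Hspa8 of the cytosol, Hspa5 of the endoplasmic reticulum, Hspa9 of the mitochondrion, Hspa13 and Hspa14. Hspa8 ranked 1 among the members per kilobase of the longest transcript in all 3 conditions, whereas with the mean transcript length Hsp90ab1 ranked 1 in EGF/FGF and in BMP. Hspa8 read 2984, 2831, 2831 and 2746 CPM in EGF/FGF, 1947, 1841, 1745 and 1675 CPM in BMP, and 2364, 2344, 2396 and 2411 CPM in BMP/FGF. The 3 groups did not overlap, with BMP/FGF between the others (BMP -0.66 ± 0.06, adjusted p = 1.49e-08, BMP/FGF -0.26 ± 0.06, adjusted p = 8.29e-04, edgeR). A processed pseudogene holds 38.6% of its 31-base stretches. Hspa9 fell 1.74-fold under BMP (-0.80 ± 0.07) and 1.52-fold under BMP/FGF (-0.61 ± 0.07), and Hspa14, which works on the ribosome, fell 1.69-fold and 1.63-fold.

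The 5 Hsp70 genes that rose were Hspa2, Hspa1a, Hspa1b, Hspa1l and Hspa12a. Hspa2, known for its work in male germ cells, read 27.0, 28.8, 24.6 and 22.1 CPM in EGF/FGF, 103.9, 105.3, 87.7 and 79.1 CPM in BMP, and 73.7, 70.0, 73.4 and 76.6 CPM in BMP/FGF. All quiescent libraries were above all proliferating ones, by 3.66-fold under BMP (1.87 ± 0.08, adjusted p = 4.54e-13, edgeR) and 2.88-fold under BMP/FGF (1.53 ± 0.08, adjusted p = 7.87e-12). Hspa2 on chr12:76404176-76406938 shares under 1% of its stretches with other genes (0.115%). Hspa12a, a distant relative of Hsp70, rose from 1.57 to 7.77 CPM under BMP (2.30 ± 0.16, adjusted p = 3.20e-10) and to 7.39 CPM under BMP/FGF (2.23 ± 0.16, adjusted p = 5.72e-10).

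Hspa1a and Hspa1b encode the classic heat-inducible Hsp70 and lie beside each other on chromosome 17. Both stayed low. Hspa1b read 3.62, 4.24, 2.76 and 2.53 CPM in EGF/FGF, 9.17, 9.08, 8.81 and 8.19 CPM in BMP, and 11.2, 10.4, 11.7 and 13.6 CPM in BMP/FGF, and the 3 groups did not overlap. It rose 2.68-fold under BMP (1.42 ± 0.15, adjusted p = 6.34e-08, edgeR) and 3.57-fold under BMP/FGF (1.84 ± 0.14, adjusted p = 1.53e-09). Hspa1a rose from 1.95 to 5.06 CPM under BMP (1.37 ± 0.19, adjusted p = 3.42e-06) and to 5.52 CPM under BMP/FGF (2.82-fold, adjusted p = 1.15e-06). The 2 cannot be well separated, since 63.8% of the 31-base stretches of Hspa1a occur in Hspa1b and 67.6% of those of Hspa1b in Hspa1a. Hspa1l, at 1.08, 2.35 and 1.88 CPM, shares 71.7% of its stretches with an antisense gene and is uncertain for that reason.

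The copies are alike before their starts too, which is why a stretch of each is printed here, from RefSeq on GRCm38.p6, at chr17:34972242-34972271 and chr17:34959324-34959353, both on the minus strand. Capitals mark 2 units of the heat shock element.
Hspa1a: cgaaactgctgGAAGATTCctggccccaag
Hspa1b: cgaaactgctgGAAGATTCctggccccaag
The 30 bases are identical and the capitals begin 104 bases before each start.

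Under BMP/FGF the member with the largest change from EGF/FGF was Dnajb13, and under BMP it was Hspb8. This small heat shock protein, at chr5:116408491-116422864 (minus strand), works with the co-chaperone Bag3 in sending unfolded proteins to autophagy. Its libraries read 13.3, 11.7, 10.7 and 11.6 CPM in EGF/FGF, 271, 266, 279 and 309 CPM in BMP, and 79.3, 77.2, 83.8 and 85.0 CPM in BMP/FGF. The 3 conditions were wide apart in both lines. It rose 23.8-fold under BMP (4.57 ± 0.08, adjusted p = 1.67e-17, edgeR), rank 143 of 13312 genes by rise, and 6.87-fold under BMP/FGF (2.78 ± 0.08, adjusted p = 1.74e-15), rank 439. None of its 31-base stretches occurs in another annotated gene. Per kilobase of the longest transcript it moved from rank 55 of the members in EGF/FGF to rank 5 in BMP and 23 in BMP/FGF, and with the mean transcript length from rank 57 to 10 and 32. Bag3, named here after its values were seen, had 73.7 CPM in EGF/FGF, 81.7 in BMP and 78.1 in BMP/FGF and passed neither test (adjusted p = 0.109 and 0.346).

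The other small heat shock proteins were unlike it. Hspb6 (Hsp20) read 19.7, 20.1, 21.4 and 15.4 CPM in EGF/FGF, 18.8, 23.6, 19.3 and 27.0 CPM in BMP, and 32.9, 31.9, 32.2 and 31.7 CPM in BMP/FGF. The BMP libraries overlapped the EGF/FGF ones, whereas the BMP/FGF libraries lay above both (against EGF/FGF 0.75 ± 0.11, adjusted p = 8.48e-06, edgeR). Hspb11, a subunit of the intraflagellar transport complex in cilia, lay at 14.1, 12.9 and 14.0 CPM and passed neither test. Hspb1 (Hsp25), Hspb2 and Hspb9 had at most 3, 9 and 3 counts and were not tested. Cryab, a small heat shock protein outside the rule, was the largest rise of a fixed list with other such genes, from 31.3 to 293 CPM under BMP (3.24 ± 0.11, adjusted p = 1.48e-14) and 181 CPM under BMP/FGF (2.54 ± 0.11, adjusted p = 2.72e-13). In the same list the collagen chaperone Serpinh1 fell from 342 to 181 CPM under BMP and to 215 CPM under BMP/FGF.

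**Figure D3:**
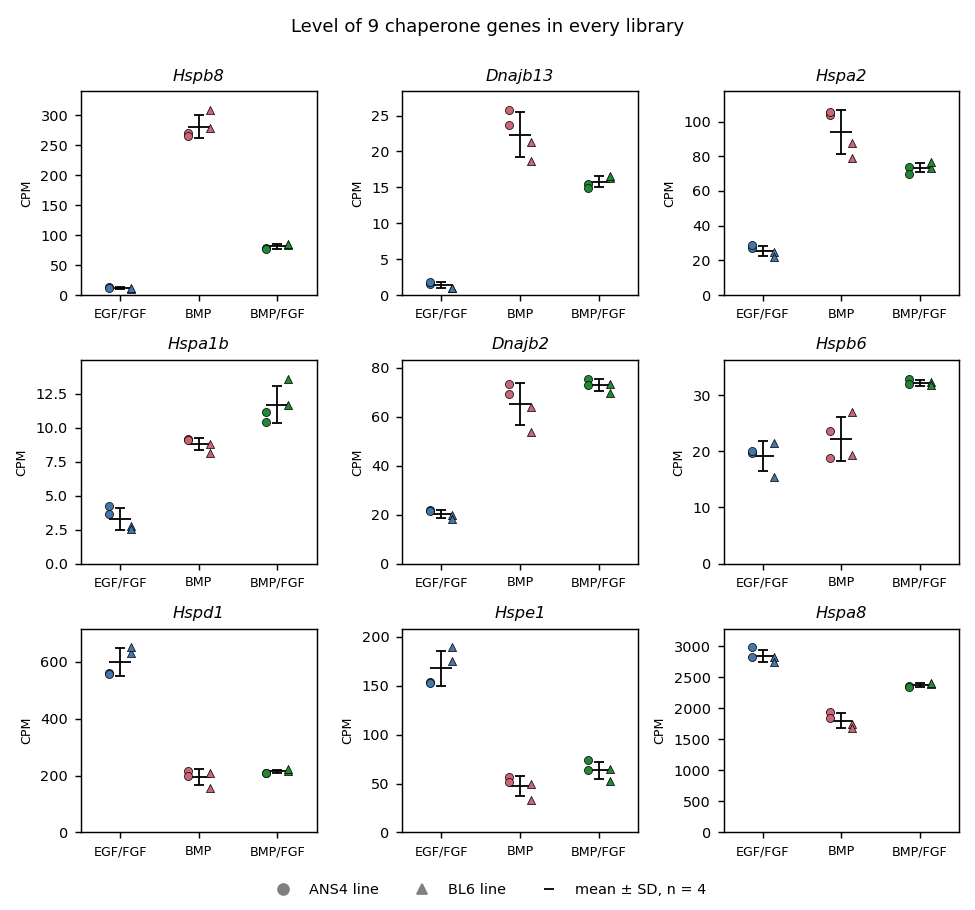
CPM (vertical axes, from 0) of 9 members in each library of EGF/FGF, BMP and BMP/FGF, with circles for ANS4, triangles for BL6 and black bars for the mean ± SD of 4 libraries. Hspb8 and Hspa8 form 3 separate groups in opposite order, and Hspb6 is raised in BMP/FGF, at 31.7 to 32.9 CPM.

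The J-domain genes choose the substrates of Hsp70. Of 39 tested, 15 rose and 15 fell under BMP, 38.5% each, near the 40.8% and 38.8% of all genes. Under BMP/FGF 16 rose and 12 fell, 41% and 30.8%, beside 40.9% and 38% of all genes. Dnajb13, known as a part of the radial spokes of motile cilia, rose from 1.38 ± 0.415 to 22.4 ± 3.09 CPM in BMP (4.01 ± 0.15, adjusted p = 4.71e-14, edgeR) and to 15.8 ± 0.803 CPM in BMP/FGF (3.51 ± 0.15, adjusted p = 3.70e-13). It overlaps its neighbour Ucp2, in a retained intron transcript that holds 9.97% of its 31-base stretches. Of the ependymal marker list, 5 of 6 genes were measured. Their summed level was 63.5 to 79.2 CPM in EGF/FGF, 201 to 240 CPM in BMP and 204 to 216 CPM in BMP/FGF. Most of it was Foxj1, at 51.8 to 69.2, 173 to 207 and 176 to 185 CPM in these conditions. The 3 tested genes, Foxj1, Rsph1 and Dynlrb2, were called higher in both comparisons. Ccdc153 and Mcidas were not tested and stayed at or below 0.485 and 0.216 CPM. The part of this list in the rise of Dnajb13 was not tested.

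Dnajb2, a J protein first known from neurons, read 21.7, 21.5, 19.9 and 18.2 CPM in EGF/FGF, 73.4, 69.4, 53.8 and 63.9 CPM in BMP, and 75.5, 72.7, 69.7 and 73.3 CPM in BMP/FGF. The quiescent libraries did not overlap the proliferating ones (BMP 1.68 ± 0.07, adjusted p = 5.81e-13, BMP/FGF 1.84 ± 0.07, adjusted p = 1.61e-13, edgeR). Dnajc28 rose 5.06-fold under BMP and 5.01-fold under BMP/FGF, from 4.89 ± 0.324 CPM. Dnajc6 (auxilin, which uncoats clathrin vesicles in neurons) was low, at 0.220 CPM in EGF/FGF, 1.21 in BMP and 0.659 in BMP/FGF (2.42 ± 0.33, adjusted p = 2.23e-06, and 1.55 ± 0.37, adjusted p = 9.03e-04). All 6 genes of the neuron marker list were measured. Their summed level was 13.3 to 18.08 CPM in EGF/FGF, 302 to 611 CPM in BMP and 94.1 to 103.2 CPM in BMP/FGF. Under BMP most of the sum was Dcx, at 170 to 396 CPM, and Tubb3, at 121 to 217 CPM. The 4 tested genes, Dcx, Tubb3, Snap25 and Syt1, were called higher in both comparisons. Stmn2 and Rbfox3 were not tested and stayed at or below 0.626 and 0.209 CPM. The part of this list in the rise of Dnajb2, Dnajc28 and Dnajc6 was not tested. Dnaja4, which rose 2.02-fold under BMP and 1.82-fold under BMP/FGF, shares 43.2% of its stretches with Wdr61.

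Among the J-domain genes that fell, Dnajc9, a chaperone of newly made histones H3 and H4, went from 190.1, 186, 220 and 194 CPM in EGF/FGF to 70.0, 58.3, 68.3 and 64.0 CPM in BMP, and to 65.5, 64.8, 62.8 and 63.8 CPM in BMP/FGF. No library of the quiescent groups came near the proliferating range (BMP -1.60 ± 0.07, adjusted p = 3.26e-13, BMP/FGF -1.62 ± 0.07, adjusted p = 2.76e-13, edgeR). Dnajc21, which helps the large ribosomal subunit mature, fell 3.22-fold under BMP and 3.13-fold under BMP/FGF. Dnajc2, the J partner of Hspa14 on the ribosome, fell from 75.3 to 31.2 CPM (-1.27 ± 0.08) and to 37.3 CPM (-1.01 ± 0.08). All 4 genes listed as ribosome-linked (Dnajc2, Hspa14, Dnajc21 and Dnajc24) fell under BMP, beside 38.8% of all genes, and 3 fell under BMP/FGF, beside 38%. Dnajb1, the main stress-inducible J protein, fell from 56.3 to 40.1 and 32.6 CPM, and Dnaja1, its abundant relative, at 348, 377 and 352 CPM, passed no test. Dnajb6, a suppressor of amyloid, lay at 158 and 163 CPM in EGF/FGF and BMP and rose to between 177 and 182 CPM in BMP/FGF (0.18 ± 0.05, adjusted p = 0.00418).

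Of 10 chaperones of the endoplasmic reticulum, 5 fell and 2 rose in both comparisons, 50% and 20%, beside 38.8% and 40.8% of all genes under BMP and 38% and 40.9% under BMP/FGF. Under BMP, Hspa5 (BiP), the Hsp70 of this compartment, fell 1.41-fold, Hsp90b1 1.55-fold and Dnajc10, which reduces disulfides, 1.69-fold, while Dnajb9 rose 2.11-fold (1.07 ± 0.07, adjusted p = 7.90e-11, edgeR) and Dnajc1 1.55-fold. Under BMP/FGF, Dnajb9 rose 2.15-fold and Dnajc1 2.00-fold. Dnajc3 lay at 131, 141 and 142 CPM and passed no test. In a further list of 18 folding and unfolded protein response genes, 9 fell and 4 rose under BMP (50% and 22.2%), and 8 fell and 6 rose under BMP/FGF (44.4% and 33.3%), beside the same shares of all genes. This list held 5 genes whose response to BMP differed between the lines (edgeR interaction), beside 9.02% of all genes. Its largest rise and fall under BMP were Herpud1, which takes part in the degradation of misfolded proteins, from 15.1 to 30.5 CPM (1.01 ± 0.11, adjusted p = 2.30e-07), and Atf4, a transcription factor of the stress response, from 148 to 61.1 CPM (-1.28 ± 0.12, adjusted p = 1.58e-08). Under BMP/FGF they were the stress-induced transcription factor Ddit3, from 9.77 to between 17.1 and 18.6 CPM (0.89 ± 0.12, adjusted p = 1.86e-06), and Sdf2l1, a partner of BiP, from 12.4 to 4.28 CPM (-1.53 ± 0.13, adjusted p = 7.38e-09).

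A search of the 250 bases before the RefSeq start found the ER stress element, the pair CCAAT and CCACG set 9 bases apart, in 3 of 65 members with a promoter window, all of them genes of this compartment. It was found in 4.62% of members and in 0.13% of 27025 genes, on either strand. These 3 stretches are shown because their genes share the site, at chr2:34772020-34772049 (plus), chr10:86705632-86705661 (minus) and chr14:118937822-118937851 (plus), with capitals for the element.
Hspa5: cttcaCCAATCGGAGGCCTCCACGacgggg
Hsp90b1: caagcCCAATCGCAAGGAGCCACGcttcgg
Dnajc3: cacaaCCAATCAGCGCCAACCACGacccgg
Hspa5 and Hsp90b1 fell in both comparisons, and Dnajc3 passed neither.

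Heat shock elements were matched in the same way. At least 2 units (GAANNTTC or TTCNNGAA, both strands) stood before 16 of the 65 members, 24.6%, beside 14.5% of all genes, and 3 units before Hspd1, Hspe1 and Dnajb6, 4.62% of members beside 0.514% of all genes. The 3-unit matches contain the 2-unit ones. Those of Hspd1 and Hspe1 are the same bases read on opposite strands, so both counts hold this site under 2 genes. The matches of Hspa1a and Hspa1b lie in identical copies. These counts are thus of genes and not of separate sites. Of the 16 members, 14 were tested, and 4 rose and 6 fell under BMP, beside 40.8% and 38.8% of all genes, while 6 rose and 6 fell under BMP/FGF, beside 40.9% and 38%. The window of Hspb8 held no match, which says only that these letters are not in this window. The E-box CACGTG stood before 6 members, 9.23% beside 6.86% of all genes, and the amino acid response element TGATGNAA before Hspa14 alone, 1.54% beside 3.91%. Dnajb6 is shown as the member of the 3-unit group that did not fall, at chr5:29735844-29735873 (plus strand, GRCm38.p6), with capitals for the 3 units.
Dnajb6: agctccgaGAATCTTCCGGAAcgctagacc

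Of 8 mitochondrial chaperones, 6 fell and 1 rose under BMP, 75% and 12.5%, beside 38.8% and 40.8% of all genes. Under BMP/FGF 4 fell and 1 rose, 50% and 12.5%, beside 38% and 40.9% of all genes. The gene that rose in both was Dnajc30, from 15.1 to 18.2 CPM (0.27 ± 0.09, adjusted p = 0.0136, edgeR) and to 18.7 CPM, and 24.9% of its 31-base stretches occur in the overlapping gene Bud23. Of 8 genes of mitochondrial import and quality control, 5 fell in each comparison, 62.5% beside the same shares of all genes, led by the import motor subunit Timm44, from 67.2 to 32.2 CPM under BMP (-1.06 ± 0.07, adjusted p = 1.93e-10, edgeR), while Clpx, the unfoldase of a matrix protease, rose from 46.2 to 71.4 CPM (0.63 ± 0.06, adjusted p = 3.29e-08). Under BMP/FGF the iron-sulfur J protein Hscb rose from 9.92 to 16.9 CPM (0.77 ± 0.10, adjusted p = 2.25e-06).

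Between the quiescent states the differences were fewer and smaller. With FGF2 added to BMP4, 15 of 72 members rose and 8 fell, 20.8% and 11.1%, beside 20.1% and 21.3% of all tested genes. The median log2 fold change was 0.06 for members and -0.0035 for all genes. Hspb8 was the only member beyond 1.5 in edgeR and in each of the 22 alternatives run, where 0.901% of all genes rose and 0.684% fell that far. It was 3.46-fold lower in BMP/FGF (-1.79 ± 0.07, adjusted p = 1.02e-11), rank 59 of 13312 by fall. The number of members that rose was 9 without BL6 BMP/FGF replicate 2, 13 without BL6 BMP replicate 1 and 11 without BL6 BMP replicate 2. The number that fell was 5 without ANS4 BMP replicate 1, 6 without BL6 BMP replicate 1 and 10 without BL6 BMP replicate 2.

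Several housekeeping chaperones were among those that rose with FGF2. Hspa8 was 1.32-fold higher in BMP/FGF than in BMP (0.40 ± 0.06, adjusted p = 5.21e-05, edgeR), Hsp90b1 1.30-fold (0.37 ± 0.08, adjusted p = 9.60e-04), Hspa13 1.24-fold and Hspe1 1.34-fold (0.43 ± 0.13, adjusted p = 0.0133). The largest rise was that of Hspb6 (0.54 ± 0.11, adjusted p = 9.73e-04), and Dnajc24, a factor of diphthamide synthesis, rose 1.33-fold (0.41 ± 0.08, adjusted p = 5.88e-04). Hspa8, Hsp90b1, Hspb6 and Dnajc24 kept their calls in all 22 alternatives. Hspe1 lost its call without ANS4 BMP/FGF replicate 1, Hspa1b (0.41 ± 0.13, adjusted p = 0.0149) lost it without BL6 BMP/FGF replicate 2 and in ANS4 alone, and the small rises of Hspa9 (0.19 ± 0.07, adjusted p = 0.0259), Cct6a (0.18 ± 0.06, adjusted p = 0.0296) and Dnajb6 (0.14 ± 0.05, adjusted p = 0.0402) held in 15, 13 and 7 of 22. The others that rose were Dnajc1 (0.37 ± 0.06), Dnajc15 (0.37 ± 0.12), Hspbp1 (0.30 ± 0.07), Dnajc2 (0.26 ± 0.08) and Dnajc19, a part of the mitochondrial import motor (0.24 ± 0.07). Dnajc15 overlapped between the 2 conditions and differed between the lines (0.61 ± 0.14, adjusted p = 0.00967, edgeR interaction). In ANS4 it read 27.7 and 25.1 CPM in BMP and 28.9 and 27.1 CPM in BMP/FGF. In BL6 it read 15.2 and 18.5 CPM, then 27.7 and 27.1 CPM.

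Lower with FGF2 were, after Hspb8, the low Dnajc6 (-0.87 ± 0.27, adjusted p = 0.0147, edgeR), Dnajb13 (-0.49 ± 0.11, adjusted p = 0.00134), Hspa2 (-0.35 ± 0.08, adjusted p = 0.00156), Dnajb1 (-0.30 ± 0.07, adjusted p = 0.0024), Dnajb4 (-0.23 ± 0.09, adjusted p = 0.0395), Dnajc27 (-0.19 ± 0.07, adjusted p = 0.039) and Dnajc11 (-0.17 ± 0.06, adjusted p = 0.022). Hspa2 and Dnajb13 lost their calls in BL6 alone. Dnajb4, a J protein close to Dnajb1, held in 13 of 22 alternatives and stood at 0.0035 in BL6 alone, and Dnajc27 held in 12. Against 20.1% of all genes that rose and 21.3% that fell, 9 of 18 unfolded protein response genes rose and 1 (Herpud1, from 30.5 to 22.1 CPM) fell, 5 of 9 prefoldin and CCT partners rose and 0 fell, and 3 of 23 co-chaperones rose and 2 fell, 13% and 8.7%. Of the 18 unfolded protein response genes, 5 differed between the lines in this step (edgeR interaction), beside 13.5% of all genes. Sil1, which recharges BiP, rose from 26.1 to 40.4 CPM (0.64 ± 0.11, adjusted p = 1.44e-04) and Fkbp5 from 30.4 to 47.9 CPM (0.66 ± 0.07, adjusted p = 1.60e-06), while Bag6, which guards new membrane proteins, fell from 288 to 216 CPM (-0.42 ± 0.08, adjusted p = 2.76e-04). In ANS4, Sil1 went from 32.5 and 29.3 to 37.1 and 39.4 CPM. In BL6 it went from 19.8 and 23.0 to 40.9 and 44.2 CPM. Atf4 was higher by 0.38 ± 0.12 (adjusted p = 0.0175) over both lines and stood at -0.05 in BL6 alone. Cryab was lower in BMP/FGF by 0.70 ± 0.10 on the log2 scale (adjusted p = 2.19e-05).

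The lines did not respond alike in every gene. A line by condition interaction was called for 7 of 72 members under BMP against EGF/FGF, for 2 under BMP/FGF against EGF/FGF and for 8 between BMP/FGF and BMP, that is 9.72%, 2.78% and 11.1% of members beside 9.02%, 4.98% and 13.5% of all genes. Hspa5 read 676, 679, 725 and 688 CPM in EGF/FGF with ANS4 first, 563 and 554 CPM in BMP for ANS4 against 445 and 411 CPM for BL6, and 545 to 564 CPM over the 4 libraries of BMP/FGF. Its BMP libraries split by line. So did the summed neuron markers, at 302 and 308 CPM in ANS4 BMP against 602 and 611 CPM in BL6 BMP, and the summed proliferation genes, at 565 and 551 CPM against 765 and 689.6 CPM. The summed astrocyte markers were at 5046 and 5161 CPM in ANS4 BMP against 4014 and 4142 CPM in BL6 BMP. The part of these lists in the line differences was not tested. Hspa5 fell further under BMP in BL6 than in ANS4, by 0.45 ± 0.08 on the log2 scale (adjusted p = 0.00285, edgeR). Its step from BMP to BMP/FGF was higher in BL6 by 0.39 ± 0.08 (adjusted p = 0.00484). Both were called for Hspa5 in 19 of 19 alternatives. Dnajb11, its J partner in the same compartment, split likewise, at 93.1 and 80.04 CPM in ANS4 BMP against 66.0 and 64.1 CPM in BL6 BMP (-0.59 ± 0.11, adjusted p = 0.00259).

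Hspa4 also fell further under BMP in BL6 than in ANS4. Dnajc15, a J protein of the mitochondrial inner membrane, was lower under BMP in BL6 and not in ANS4. Hspa4 read 345 and 331 CPM in ANS4 BMP against 298 and 274 CPM in BL6 BMP, from 517 and 498 against 556 and 579 CPM in EGF/FGF (-0.40 ± 0.09, adjusted p = 0.00819, edgeR). Dnajc15 read 27.7 and 25.1 CPM in ANS4 BMP against 15.2 and 18.5 CPM in BL6 BMP, from 22.4 to 25.4 CPM in EGF/FGF (-0.72 ± 0.15, adjusted p = 0.0057). Dnajb11, Hspa4 and Dnajc15 held these BMP calls in 19 of 19 alternatives. The line difference of Hspe1 (-0.65 ± 0.18, adjusted p = 0.0304) held in 10 of 19 and stood at -0.39 without BL6 BMP replicate 2 and -0.96 without BL6 BMP replicate 1.

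Line difference counts rested on single libraries. Under BMP against EGF/FGF the count was 17 without BL6 BMP replicate 1 and 4 without BL6 BMP replicate 2, without either EGF/FGF replicate of either line or without ANS4 BMP replicate 1. Under BMP/FGF against EGF/FGF it was 7 without either BL6 BMP library, 1 without either ANS4 BMP library and 0 without any 1 of the other 8 libraries, where 8 to 18 members had an unadjusted p under 0.05 by edgeR. Between BMP/FGF and BMP it was 17 without BL6 BMP replicate 1, 5 without either ANS4 BMP library or either BL6 EGF/FGF library, 3 without either ANS4 BMP/FGF library or BL6 BMP/FGF replicate 1, and 2 without BL6 BMP/FGF replicate 2. The plot of levels by line shows Hspa5, Dnajb11, Hspa4, Dnajc15, Hspe1 and Hspa2.

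**Figure D4:**
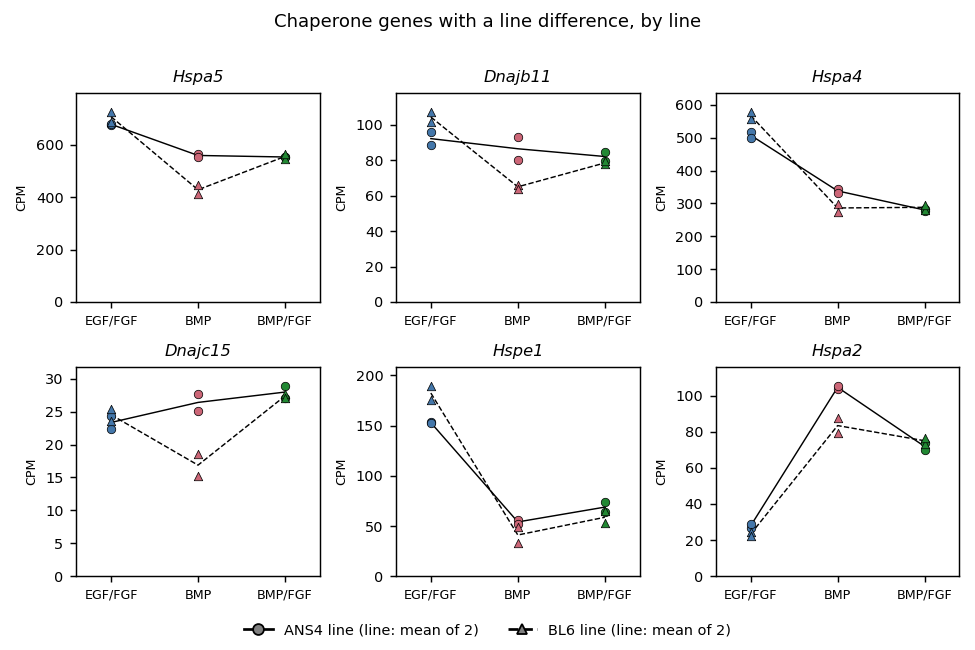
CPM (vertical axes, from 0) of 6 members with a line difference in EGF/FGF, BMP and BMP/FGF, with circles and solid lines for ANS4, triangles and dashed lines for BL6, and lines through the mean of 2 libraries. Hspa5, Dnajb11, Hspa4, Dnajc15 and Hspe1 are lower in BL6 than in ANS4 under BMP, with Hspa5 at 411 and 445 CPM in BL6 and 554 and 563 CPM in ANS4.

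Of the 8 members not tested, none exceeded 12 counts in any library. They are Hspb1, Hspb2, Hspb9, Cct8l1, Dnajb3, Dnajb7, Dnajc22 and Hspa12b, and Cct8l1, Dnajb3 and Dnajb7 had at most 1 count. Markers of other cells that could be present were low for microglia, at no more than 14.7 CPM summed with 7 of 12 genes not in the table, and for endothelial and mural cells, at no more than 7.71 CPM. The astrocyte list rose from 1390.1 to 1804 CPM in EGF/FGF to 4014 to 5161 CPM in BMP and 7233 to 7456 CPM in BMP/FGF, and the oligodendrocyte list from 26.8 to 30.9 CPM to 169 to 191 CPM and 263 to 272 CPM. Their part in the results on the chaperones was not tested.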

How the data were processed

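Bulk RNA of 12 samples was sequenced on BGISEQ-500RS from low input libraries. The authors ran Trim Galore 0.5.0, kallisto 0.44.0 with the mm10 transcriptome and tximport, and deposited estimated counts per gene as whole numbers, which were used unchanged. A second deposited table holds log2 values (the rlog of DESeq2 1.27.32) and served 1 alternative only.

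Genes kept by filterByExpr (13312, with 4053 left out) were scaled by TMM and fitted with glmQLFit of edgeR 4.0.16 in R 4.3.3, and conditions and line by condition interactions were tested with glmQLFTest. Thresholds were FDR 0.05 and a log2 fold change of 1.5. Totals of 18069052 to 19451818 counts set the precision, and the floor was 3 counts.

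Members and lists were chosen with earlier results of these data known. Named by rule were set examples of each family, the 5 largest rises and falls in each comparison (FDR under 0.05, at least 1 CPM on average, every line and replicate moving the same way), the 3 largest line differences, and the largest rise and fall in each list of related genes. Further members (such as Hspa4l, Hspa13, Hspa14, Hspb11, Dnaja4, Dnajb9, Dnajc1, Dnajc3, Dnajc6, Dnajc10, Dnajc11, Dnajc19 and Dnajc30) were named after their values were seen, to complete a family or list.

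Alternatives used other scaling (DESeq2 size factors or library size), DESeq2 1.42.0 in place of edgeR, unfiltered genes, a fit lacking the line term, a replicate block, the 8 libraries of a comparison, a single line, or all libraries but 1. A further alternative, limma-trend (limma 3.58.1) on the log2 values, was chosen after seeing the data. Positions, transcript lengths and stretches of 31 bases shared between genes came from GENCODE vM21 (GRCm38), which matched all 80 members by identifier. RefSeq promoter windows (GRCm38.p6) were found for 65 members and not for 15. Python 3.11.15 with pandas 2.3.3, numpy 2.4.6 and matplotlib 3.10.9 made sequence tables and plots. Scripts were tested on simulated data.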

Additional observations from a re-analysis of the deposited data

Results flagged for a closer look

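Of 123 groups of 4 libraries examined for a library that stands apart (Dixon's test, which flags about 1 in 20 by chance), 2 were marked. Cct3 read 168.7 CPM in ANS4 BMP replicate 1, below the others at 174.2 to 174.6 CPM. Hsf1 read 22.3 CPM in ANS4 BMP/FGF replicate 1, above the others at 18.2 to 18.55 CPM.

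Other members were marked because their response differed between the lines by the interaction test (edgeR, FDR under 0.05). Values are the log2 change in BL6 minus that in ANS4. For BMP against EGF/FGF they were -0.59 for Dnajb11, -0.72 for Dnajc15, -0.40 for Hspa4, -0.45 for Hspa5 and -0.65 for Hspe1. Dnajc10 (-0.34) and Hspa4l (-0.42), not among the genes named by rule, were called too. For BMP/FGF against EGF/FGF they were 0.80 for Hspa1b and -0.38 for Hsph1. For BMP/FGF against BMP they were 0.35 for Dnajb11, 0.47 for Dnajb4, 0.61 for Dnajc15, -1.25 for Hspa1l, 0.39 for Hspa2, 0.28 for Hspa4 and 0.39 for Hspa5. Dnaja3 (0.31), not named by rule, was called too. Hspa1l, at 1.08 to 2.35 CPM on average, shares most of its sequence with an antisense gene.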

How the results depend on the processing

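Counts of members called between conditions stayed within 1.5 times of those reported in all 22 alternatives, with these exceptions, whose cause was not tested. Members lower by more than 1.5 under BMP/FGF against EGF/FGF (2 reported) were 1 in ANS4 alone, 4 in BL6 alone, 1 with limma-trend (chosen after seeing the data), and 2 to 3 with a library left out. Leaving out a library gave 9 to 17 members higher (15 reported) and 5 to 10 lower (8 reported) in BMP/FGF against BMP. Line differences moved most. Under BMP against EGF/FGF (7 reported) there were 4 with no filter, 4 with limma-trend and 4 to 17 with a library left out. Under BMP/FGF against EGF/FGF (2 reported) there was 1 with DESeq2 size factors, 1 with library size only, 1 with the DESeq2 Wald test, 1 with limma-trend, 9 with only the 8 libraries compared, 0 with no filter (15 at an unadjusted p under 0.05) and 0 to 7 with a library left out. For BMP/FGF against BMP (8 reported) there were 5 with library size only, 5 with no filter, 4 with only the 8 libraries compared and 2 to 17 with a library left out. Among named genes, Atf4 in BMP/FGF against BMP turned to -0.0508 in BL6 alone and Dnajb4 to 0.0035. The replicate block left 1 line difference of BMP/FGF against EGF/FGF and 5 of BMP/FGF against BMP, and all other counts within 1.5 times. The labels do not say whether replicate numbers pair the libraries. Correlations of replicate differences between conditions of a line ran from -0.179 to 0.306, the highest for BMP and EGF/FGF in ANS4. With 1 replicate difference per line and condition, they cannot settle this. Counts of 1 to 14 per library limit Cct6b.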
